A study of Mus musculus with 19 samples.

Results

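The 9 tetraspanin genes Cd81, Cd9, Cd82, Cd37, Cd53, Cd151, Tspan3, Tspan13 and Tspan33 were followed in RNA of splenic conventional dendritic cells from 3 mouse genotypes. They were chosen by name from the tetraspanin family, with genotype differences measured in these same libraries in view, and 9 of 9 were found among the 24421 gene symbols of the count tables. The lower Cd81 RNA of cDC1 without Xbp1 was known beforehand, so the levels, tests and counts below describe the members and lend the choice no support. All 9 passed the filter on low counts in both cell types, with between 280 counts (Cd151) and 227146 counts (Tspan13) summed over the 19 libraries.

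Tetraspanins are small membrane proteins that cross the membrane repeatedly and gather partner proteins, such as integrins, MHC class II molecules, immunoglobulin superfamily proteins and metalloproteases, into membrane microdomains. CD81 and CD9 bind immunoglobulin superfamily partners and, with CD63, are widely used as markers of extracellular vesicles. CD37 and CD53 are largely restricted to leukocytes, CD151 and CD82 are known for their links to integrins, and TSPAN33 belongs to the TspanC8 group that escorts the sheddase ADAM10. In dendritic cells, tetraspanins are known to affect migration, the clustering of MHC class II molecules and T cell stimulation. Like other membrane proteins they are made at the endoplasmic reticulum (ER), whose stress sensor IRE1 (gene Ern1) splices the mRNA of the transcription factor XBP1 and can also cleave other mRNAs.

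The subsets cDC1 and cDC2 were sorted from the spleen of C57BL6 mice labelled WT, Xbp1 KO or Xbp1-Ire1 KO, the last lacking both genes. Each group held 3 libraries, except cDC2 WT with 4. Among the WT libraries, replicates 1 and 2 of each subset carry floxed Xbp1 and Ire1 alleles in their names (fl-fl) and the others are named WT. These kinds differed: a chi-square of count differences per gene was 13.6 between the fl-fl libraries of cDC1 WT. It was 75 and 71.7 between these and the WT-named library. In cDC2 WT it was 24.8 and 15.3 within a kind and 52.3 to 69 between kinds, and 9.17 to 37.5 within knockout groups. Unless stated otherwise, comparisons with WT pool both kinds, and the cause of their difference was not tested. The sources used here do not give the Cre driver, the deleted exons, sex, age or any pooling of mice. Whether each replicate came from its own mouse is not stated either, so the p-values below cover only the variation among these libraries, part or all of which may be technical.

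Total counts per library ran from 10.6 to 16.2, in units of 1e6. The summed level of 7 cDC1 markers was 6030 to 8430 CPM, that is, per 1e6 counts, in cDC1 and 211 to 350 CPM in the cDC2 libraries, and that of 7 cDC2 markers was 16.3 to 92.5 and 2210 to 3110 CPM. Xbp1 lay at 147 to 240 CPM in cDC1 WT, 92.9 to 117 without Xbp1 and 312 to 359 without both genes, and Ern1 at 23 to 29.9, 27.8 to 34.3 and 52.3 to 72.6 CPM. In cDC2 the Xbp1 ranges were 70.3 to 154, 40.8 to 55.7 and 55.9 to 76 CPM and the Ern1 ranges 20.1 to 30.7, 25.9 to 30 and 20.6 to 30.2 CPM. These are counts over whole genes and do not check the deletion of part of a gene. In 1 cDC1 Xbp1 KO library (replicate 3), 10 transcripts of pancreatic acinar cells summed to 1860 CPM, against at most 8.45 CPM in the others. Without it, the log2 difference of Xbp1 KO from WT in cDC1 was −2.57 ± 0.24 for Cd81 and −1.94 ± 0.25 for Tspan3, both still called. In bulk RNA, fewer cells of a type and less RNA per cell cannot be told apart.

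Levels per kilobase were taken over all annotated exons of a gene, merged across its transcripts. By this length, Cd53 and Tspan13 had the highest mean levels in WT cells of 31 tetraspanin genes looked for. Cd81 and Cd9 followed in cDC1. This order depends on the length used. The merged exons of Cd81 hold 2879 bases and its main annotated transcript 1533, while both lengths are 1742 for Cd53. In cDC1 WT the mean level was 442 ± 60.3 CPM per kb for Cd53, 403 ± 28.2 for Tspan13, 296 ± 84 for Cd81 and 288 ± 23 for Cd9 (SD, n = 3). Cd82 (99.4 ± 21.6), Tspan3 (62 ± 18.4), Tspan33 (28.7 ± 3.14), Cd37 (19.8 ± 4.22) and Cd151 (0.349 ± 0.289) came below them in CPM per kb. The pairs Cd53 and Tspan13, and Cd81 and Cd9, lay within 1 SD of each other. In cDC2 WT, Cd53 (525 ± 45.2) and Tspan13 (413 ± 19.4) again led in CPM per kb, with Cd9 at 114 ± 9.86, Cd82 at 93.7 ± 14.5 and Cd81 at 62.7 ± 15.7 (SD, n = 4).

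The share of Cd81 in the tetraspanin RNA pool of cDC1 was small without Xbp1. Summed over the 31 genes, the pool was 1765 ± 220 CPM per kb in cDC1 WT, 1171 ± 45.9 in cDC1 Xbp1 KO and 1397 ± 145 in cDC1 Xbp1-Ire1 KO (SD, n = 3). Cd81 made up 16.5 ± 2.8% of it in cDC1 WT, 4.01 ± 0.794% in Xbp1 KO and 20.9 ± 1.97% in Xbp1-Ire1 KO. In cDC2 the pool was 1470 ± 57.4 CPM per kb in WT (n = 4), 1497 ± 105 in Xbp1 KO and 1464 ± 52.8 in Xbp1-Ire1 KO, and the Cd81 share was 4.24 ± 0.922%, 4.65 ± 1.04% and 3.87 ± 0.993%. The share of Tspan13 in cDC1 was 23 ± 1.86%, 27 ± 1.83% and 18.4 ± 0.725% in the same order of genotypes. These shares rest on merged exon lengths of GENCODE M21, since the annotation used for counting is not given in the sources used here. Their size depends on that choice of length.

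**Figure D1:**
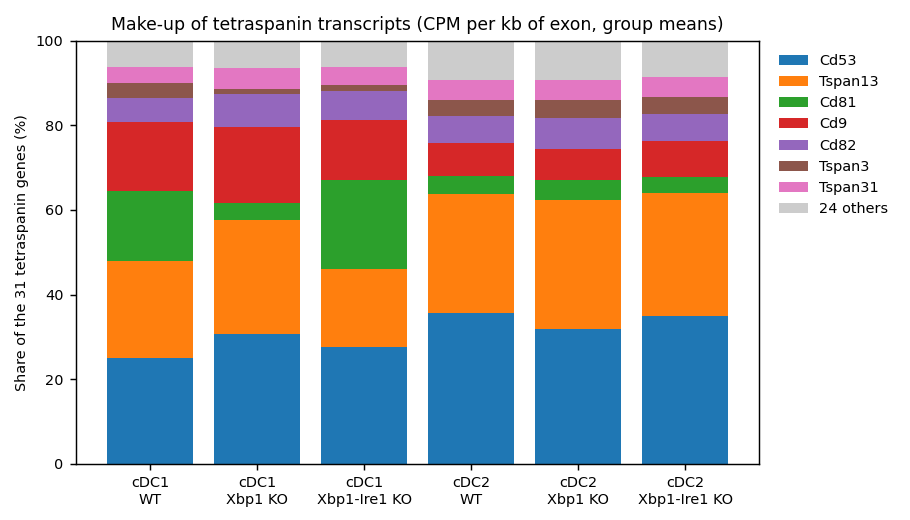
Stacked bars give the share (%) of each gene in the summed CPM per kb of merged exon of 31 tetraspanin genes, as the mean of each group. The green Cd81 segment is 16.5% in cDC1 WT, 4.01% in cDC1 Xbp1 KO and 20.9% in cDC1 Xbp1-Ire1 KO, and 3.87% to 4.65% in the 3 cDC2 groups.

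Genotypes were compared with the quasi-likelihood test of edgeR, with Benjamini-Hochberg adjusted p-values over the whole table, and "called" means an adjusted p below 0.05. In cDC1, 2 of 9 members fell in Xbp1 KO against WT (Cd81 and Tspan3) and 0 rose, where 6.91% of the 11353 genes tested were called lower and 11.2% in either direction. In Xbp1-Ire1 KO against WT, 3 of 9 fell (Tspan3, Tspan13 and Cd9), where 4.71% of all genes were called lower and 7.75% in either direction. In Xbp1-Ire1 KO against Xbp1 KO, 2 of 9 were higher (Cd81 and Cd37), where 7.13% of all genes were called higher and 12.7% in either direction. The count for Xbp1 KO against WT depended on 1 library, WT replicate 3, the cDC1 library named WT rather than fl-fl. Without it, 7 of 9 members were called (Cd81, Tspan3, Cd9, Cd82, Cd37, Cd53 and Tspan13). Calls also rose over the whole table, to 2926 of 11597 genes without that library from 1270 of 11353 with it.

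The median log2 fold change of the 9 members in cDC1 was −0.36 in Xbp1 KO against WT, −0.15 in Xbp1-Ire1 KO against WT and 0.13 between the knockouts, beside −0.02, 0.01 and 0.02 over all genes. In Xbp1 KO against WT, 6 of 9 members lay lower in every knockout library than in every WT library, where 15.8% of all genes did. These 6 were Cd81, Tspan3, Cd9, Cd37, Tspan13 and Tspan33. In Xbp1-Ire1 KO against WT, the 3 called members did so, beside 13.8% of all genes. Between the knockouts, Cd81 and Cd37 were higher in every Xbp1-Ire1 KO library, beside 17.3% of all genes, and Tspan13 was lower, beside 19.3%. The 3 comparisons share libraries, so each comparison's own values are given side by side. CPM values below are scaled by TMM over all 19 libraries.

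**Figure D2:**
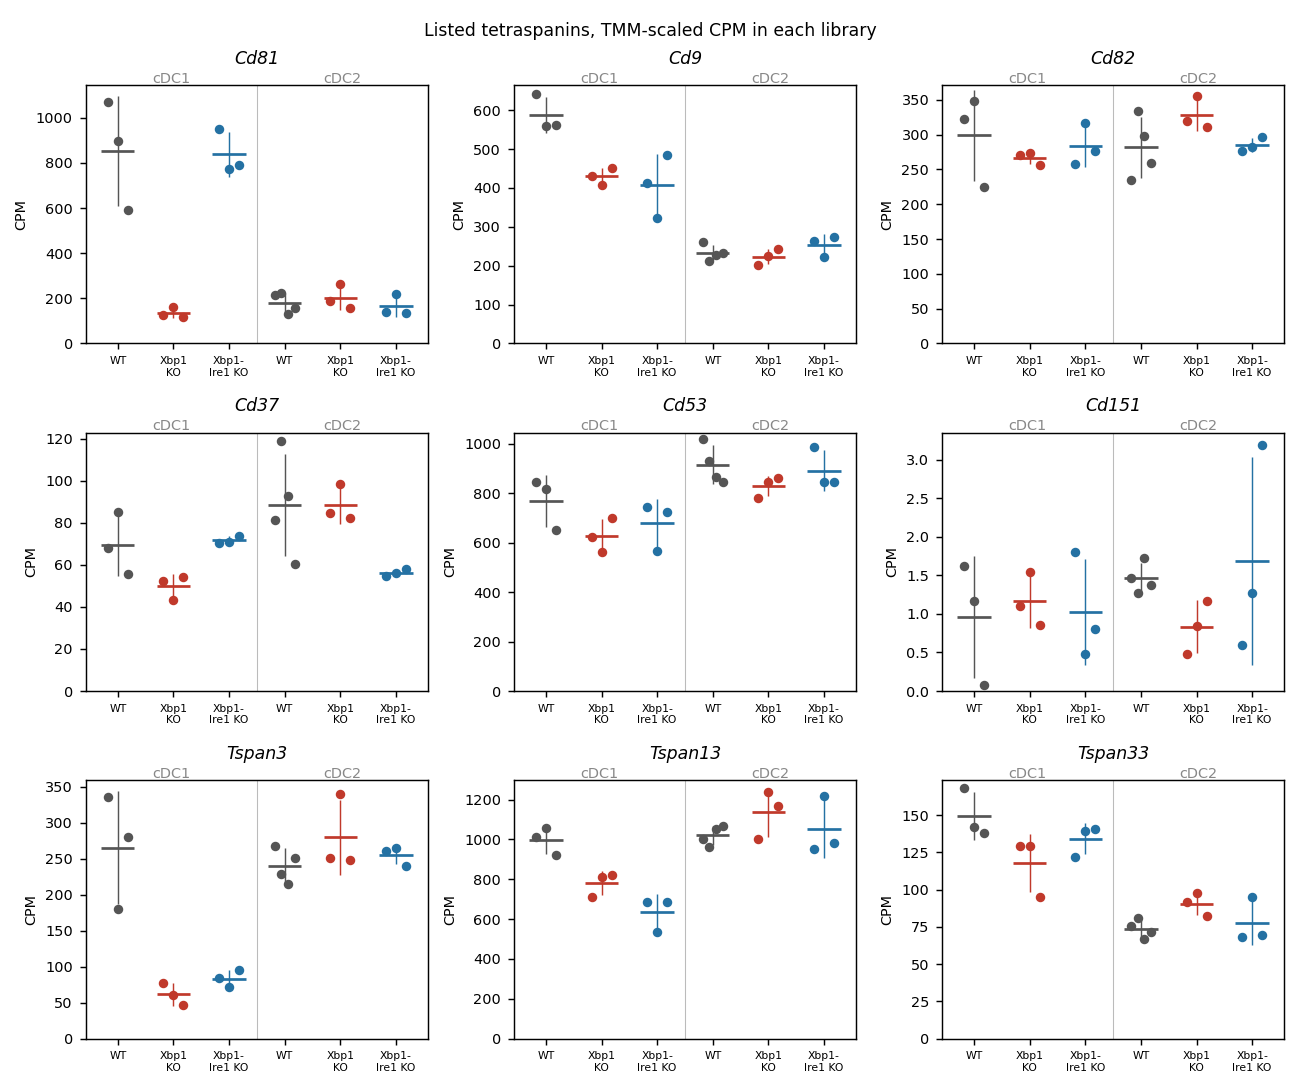
Each panel shows 1 listed tetraspanin, with the TMM-scaled CPM of every library as a point, the group mean as a horizontal line and the SD as a vertical line, for 6 groups of 3 libraries (4 in cDC2 WT). Cd81 in cDC1 is at 118 to 161 CPM in Xbp1 KO against 592 to 1070 in WT and 773 to 950 in Xbp1-Ire1 KO, while Tspan3 in cDC1 is low in both knockouts.

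Cd81, a tetraspanin that organises membrane partners in many cell types, was much lower in cDC1 without Xbp1 and within the WT range in cDC1 without both genes. Its level was 1070, 895 and 592 CPM in the cDC1 WT libraries, 125, 161 and 118 without Xbp1 and 950, 773 and 789 without both genes. Every Xbp1 KO library lay below every library of the other genotypes, and the WT and Xbp1-Ire1 KO libraries overlapped. Cd81 fell by 2.67 ± 0.21 (SE) on the log2 scale in Xbp1 KO against WT, a 6.38-fold difference (adjusted p = 2.8e-06, edgeR). It was higher by 2.65 ± 0.21 on the log2 scale in Xbp1-Ire1 KO than in Xbp1 KO (adjusted p = 2.22e-06, edgeR). The log2 difference between Xbp1-Ire1 KO and WT was −0.02 ± 0.19 (adjusted p = 0.97, edgeR).

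In cDC2, Cd81 showed no such pattern. Its level was 214, 223, 130 and 155 CPM in WT, 187, 262 and 155 without Xbp1 and 141, 218 and 133 without both genes. The 3 genotypes overlapped, and the cDC1 Xbp1 KO libraries, at 118 to 161 CPM, reached into the cDC2 range. The log2 differences in cDC2 were 0.14 ± 0.23 for Xbp1 KO against WT, −0.16 ± 0.23 for Xbp1-Ire1 KO against WT and −0.29 ± 0.25 between the knockouts, with adjusted p = 0.853, 0.868 and 0.784 (edgeR). Cd81 lies on chromosome 7 at 143052739 to 143067934, plus strand (GRCm38), and shares 104 of its 2879 exonic bases with the opposite-strand transcript R74862, so that reads there could not be assigned if counting ignored strand.

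B cells carry abundant Cd81, so the level of B cell markers is given beside it. All 6 B cell markers were measured, and their summed level was 65 to 92.1 CPM in cDC1 WT, 50.2 to 61.6 without Xbp1 and 52.2 to 88.9 without both genes, with Pax5 at 0 in cDC1 WT. Their part in the Cd81 result was not tested. In cDC2, where Cd81 was lower than in cDC1 WT, the same markers summed to 229 to 332 CPM.

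The coding sequences of Cd81 and Tspan3 are shown around the hexamer CTGCAG, because IRE1 is known to cleave mRNAs at such a core when it stands in a hairpin loop. Each window is transcript sequence of GENCODE M21 (GRCm38), 5′ to 3′ on the coding strand, with the hexamer in capitals. The first Cd81 window lies in exon 4, with the hexamer at position 320 of the coding sequence (chromosome 7, 143065983 to 143065988), and the second in exon 6 at position 556 (143066757 to 143066762), running across a splice junction. The Tspan3 window lies in exon 5, with the hexamer at position 522 (chromosome 9, 56145833 to 56145838, minus strand).
Cd81 exon 4: cctgtgaggtggCTGCAGgcatctggggct
Cd81 exon 6: ctcacccccttaCTGCAGcaagattgtcat
Tspan3 exon 5: ccctcttagctgCTGCAGagagactgccaa
The hexamer is common, being present in 70.6% of the 10601 coding genes tested in cDC1, and it stood in the coding sequence of 7 of 9 members, all but Cd9 and Tspan13. Tspan33 held 3 copies without being called in any genotype comparison of cDC1. CTGCAG reads the same on both strands, and its presence is a description of the letters, not of a cleavage site.

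The genes whose level over the 9 cDC1 libraries ran most like that of Cd81 were Ergic3, Naaa, Ext2, Yif1a and Sharpin. Their Pearson correlation with Cd81 in log2 CPM was 0.994 for Ergic3 and Naaa, 0.99 for Ext2 and Yif1a and 0.989 for Sharpin, among 8060 genes ranked, all measured in the same 9 libraries. Ergic3, a cargo receptor between ER and Golgi, differed by −1.82 on the log2 scale in Xbp1 KO against WT, and by 0.13 in Xbp1-Ire1 KO against WT. Naaa, a lysosomal amidase, differed by −1.67 and −0.03. Among the members, Cd9 and Tspan13 correlated at 0.885 over the same libraries.

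Cd9, the close relative of Cd81 known from gamete fusion and vesicle membranes, lay lower in both cDC1 knockouts. Its level was 642, 559 and 562 CPM in WT, 431, 408 and 451 without Xbp1 and 414, 323 and 485 without both genes. Every knockout library lay below every WT library, and the knockouts overlapped. In Xbp1-Ire1 KO against WT, Cd9 fell by 0.52 ± 0.14 on the log2 scale, a 1.44-fold difference (adjusted p = 0.0386, edgeR). In Xbp1 KO against WT the difference was −0.46 ± 0.14 and missed the threshold (adjusted p = 0.0527, edgeR). Both sit near it: the first lost its call in 6 of 14 alternatives and the second gained one in 7 of 14. Between the knockouts it was −0.06 ± 0.14 (adjusted p = 0.822, edgeR).

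The cDC2 libraries held less Cd9, at 261, 213, 227 and 234 CPM in WT, 203, 224 and 243 without Xbp1 and 263, 222 and 275 without both genes. These 3 groups overlapped, with log2 differences of −0.08 ± 0.12, 0.1 ± 0.12 and 0.18 ± 0.13 in the order used for Cd81. None was called. Cd9 shares 218 of its 2044 exonic bases with Gm26728 on the opposite strand.

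Tspan3, a tetraspanin found in many cell types that binds claudin-11 in oligodendrocytes, was low in both cDC1 knockouts, unlike Cd81. Its level was 335, 180 and 280 CPM in cDC1 WT, 77.8, 60.3 and 46.5 without Xbp1 and 83.6, 71.2 and 94.8 without both genes. The lowest WT library, replicate 2, was still above every knockout library, and the knockouts overlapped. Tspan3 fell by 2.12 ± 0.23 on the log2 scale in Xbp1 KO, a 4.33-fold difference (adjusted p = 5.44e-05, edgeR), with −1.67 ± 0.23 in Xbp1-Ire1 KO, a 3.17-fold difference (adjusted p = 0.000516, edgeR). Between the knockouts it differed by 0.45 ± 0.22 (adjusted p = 0.204, edgeR).

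In cDC2, Tspan3 lay between 214 and 340 CPM in every genotype: 268, 228, 214 and 251 CPM in WT, 251, 340 and 248 without Xbp1 and 260, 265 and 240 without both genes. The groups overlapped, and log2 differences were 0.2 ± 0.13, 0.07 ± 0.13 and −0.13 ± 0.14. Tspan3 lies on chromosome 9 at 56131725 to 56165477, minus strand.

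Tspan13, a tetraspanin also described in tumours and at calcium channels, lay between WT and Xbp1-Ire1 KO in cDC1 Xbp1 KO. Its level was 1010, 1060 and 922 CPM in WT, 710, 812 and 821 without Xbp1 and 688, 533 and 687 without both genes. The 3 groups did not overlap. Tspan13 fell by 0.64 ± 0.13 on the log2 scale in Xbp1-Ire1 KO against WT (adjusted p = 0.00805, edgeR), and the difference was −0.36 ± 0.13 for Xbp1 KO against WT (adjusted p = 0.0866) and −0.28 ± 0.13 between the knockouts (adjusted p = 0.17). Against the single WT-named library the first value was −0.53 with adjusted p = 0.0926 (edgeR). In cDC2, Tspan13 lay at 1000, 964, 1050 and 1070 CPM in WT, 1000, 1240 and 1170 without Xbp1 and 952, 1220 and 984 without both genes, with overlapping groups.

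Cd37, a leukocyte tetraspanin known to restrain T cell stimulation by dendritic cells, had different orders of level in the subsets. In cDC1 it lay at 68, 85.3 and 55.7 CPM in WT, 52.4, 43.1 and 54.2 without Xbp1 and 70.3, 70.9 and 73.9 without both genes. The Xbp1 KO libraries were the lowest, just under the lowest WT library. Cd37 was higher by 0.54 ± 0.16 on the log2 scale in Xbp1-Ire1 KO than in Xbp1 KO (adjusted p = 0.0434, edgeR), a call lost in 7 of 12 alternatives. The log2 difference from WT was −0.49 ± 0.16 in Xbp1 KO (adjusted p = 0.0649) and 0.05 ± 0.16 in Xbp1-Ire1 KO (adjusted p = 0.901).

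In cDC2, Cd37 lay at 81.3, 119, 92.9 and 60.5 CPM in WT, 84.5, 98.7 and 82.3 without Xbp1 and 54.5, 56.1 and 58.1 without both genes. The Xbp1-Ire1 KO libraries lay below all others, beside 2.82% of all genes lower than WT in this way and 7.08% lower than Xbp1 KO. The log2 difference was −0.67 ± 0.19 against WT (adjusted p = 0.647, edgeR) and −0.65 ± 0.2 against Xbp1 KO (adjusted p = 0.474, edgeR), so neither was called over all genes, with unadjusted p = 0.00294 and 0.00528. Against the fl-fl WT libraries alone the first was −0.87 with adjusted p = 0.0113. Cd37 shares 13 of its 3522 exonic bases with Tead2 on the opposite strand.

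Cd53, the other leukocyte-restricted member, was abundant in every library. It lay at 843, 816 and 649 CPM in cDC1 WT, 621, 562 and 699 without Xbp1 and 743, 564 and 724 without both genes. In cDC2 it lay at 1020, 929, 865 and 845 CPM in WT, 781, 846 and 859 without Xbp1 and 985, 843 and 845 without both genes. The genotypes overlapped in both subsets. The log2 difference was −0.3 ± 0.15 in cDC1 Xbp1 KO against WT (adjusted p = 0.189, edgeR) and between −0.18 and 0.13 in the other 2 comparisons of cDC1. With fl-fl WT libraries only the first was −0.4 and called (adjusted p = 0.0398, edgeR).

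Cd82, a tetraspanin linked to integrins and to the organisation of MHC class II molecules in dendritic cells, showed no called genotype difference as reported. In cDC1 Xbp1 KO against WT its log2 difference was −0.17 ± 0.15 (adjusted p = 0.499, edgeR) and ranged from −0.33 to 0.25 over the alternatives. With fl-fl WT libraries only it was −0.33 and called (adjusted p = 0.0448, edgeR). Cd82 lay at 323, 348 and 225 CPM in cDC1 WT, 270, 274 and 256 without Xbp1 and 258, 316 and 277 without both genes, and the groups overlapped. In cDC2 it lay at 235, 334, 298 and 259 CPM in WT, 319, 356 and 311 without Xbp1 and 276, 282 and 296 without both genes. There the Xbp1 KO libraries lay above the Xbp1-Ire1 KO libraries, with a log2 difference between the knockouts of −0.21 ± 0.14 (adjusted p = 0.728, edgeR).

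Tspan33, the TspanC8 member, differed by −0.36 ± 0.14 on the log2 scale in cDC1 Xbp1 KO against WT without passing the threshold (adjusted p = 0.122, edgeR). Its level was 168, 142 and 138 CPM in cDC1 WT, 129, 129 and 95.3 without Xbp1 and 122, 139 and 141 without both genes. The Xbp1 KO libraries lay below WT, and the Xbp1-Ire1 KO libraries overlapped both. In cDC2 it lay at 75.4, 81.2, 66.7 and 71.6 CPM in WT, 91.4, 98 and 82.3 without Xbp1 and 68.1, 95.3 and 69.8 without both genes, with Xbp1 KO above WT and a log2 difference of 0.28 ± 0.14 (adjusted p = 0.528, edgeR).

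Cd151, the partner of laminin-binding integrins, was barely detected. Its level ran from 0.081 to 1.8 CPM in cDC1 and from 0.483 to 3.19 CPM in cDC2, on 280 counts in all 19 libraries. Its log2 differences had SEs of 0.59 to 0.87 within a subset, so all but large changes would be missed at this depth. It shares 193 of its 2741 exonic bases with Gm10575 on the opposite strand.

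In cDC2 no member was called in any genotype comparison by edgeR's quasi-likelihood test, and DESeq2 also called 0 in each. All genes gave few calls there: 0.103% of 11646 genes in Xbp1 KO against WT, 0.0258% in Xbp1-Ire1 KO against WT and 0.0343% between the knockouts. At an unadjusted p under 0.05 the counts of members were 0, 1 and 1, both of them Cd37. The share of all genes under that looser rule was not computed, so these counts have no background beside them. The median log2 fold change of the 9 members in cDC2 was 0.14, 0.03 and −0.13 in that order, beside −0.02, 0 and 0 over all genes. In Xbp1 KO against WT, Tspan33 was higher in every knockout library and Cd151 lower, beside 4.62% and 5.15% of all genes.

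**Figure D3:**
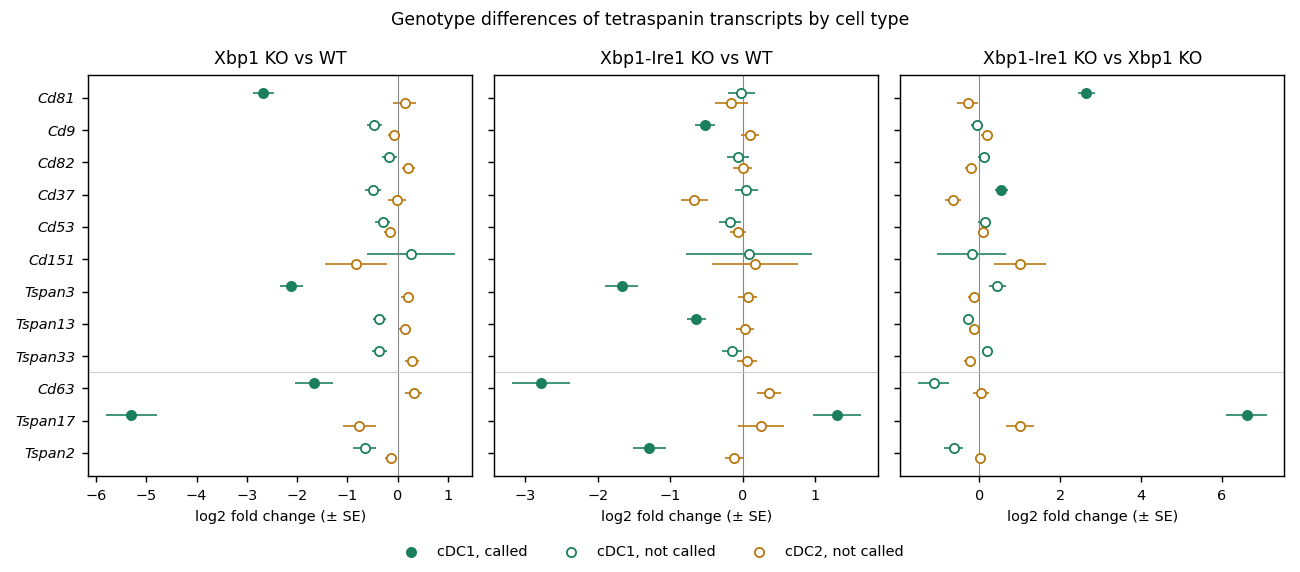
Points are log2 fold changes with SE bars for the 9 listed tetraspanins (above the grey line) and 3 further family members, in cDC1 (green) and cDC2 (orange), filled where the adjusted p was under 0.05. Cd81 in cDC1 is at −2.67 in Xbp1 KO against WT and at −0.02 in Xbp1-Ire1 KO against WT, Tspan3 is at −2.12 and −1.67, and every cDC2 point is open.

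Whether genotype acted differently in the subsets was tested as an interaction over all 19 libraries, where 1.84% of 12185 genes had a lower Xbp1 KO effect in cDC1 than in cDC2 (2.17% in either direction). Of the members, 2 of 9 were called there. The effect of Xbp1 KO against WT in cDC1 minus that in cDC2 was −2.82 ± 0.34 on the log2 scale for Cd81 (adjusted p = 2.44e-05, edgeR), and −2.32 ± 0.28 for Tspan3 (adjusted p = 2.01e-05, edgeR). For Xbp1-Ire1 KO against WT, 1.48% of genes were called lower (2.23% in either direction), and 2 of 9 members were: Tspan3 at −1.76 ± 0.27 (adjusted p = 0.000776, edgeR) and Tspan13 at −0.69 ± 0.17 (adjusted p = 0.0377, edgeR). The Tspan13 value lost its call in 15 of 21 alternatives. For Xbp1-Ire1 KO against Xbp1 KO, 1.82% of genes were called higher (2.14% in either direction), and 2 of 9 members were: Cd81 at 2.93 ± 0.35 (adjusted p = 2.59e-05, edgeR) and Cd37 at 1.18 ± 0.27 (adjusted p = 0.019, edgeR). For Cd81 in Xbp1-Ire1 KO against WT the difference of effects was 0.11 ± 0.34 (adjusted p = 0.947, edgeR).

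**Figure D4:**
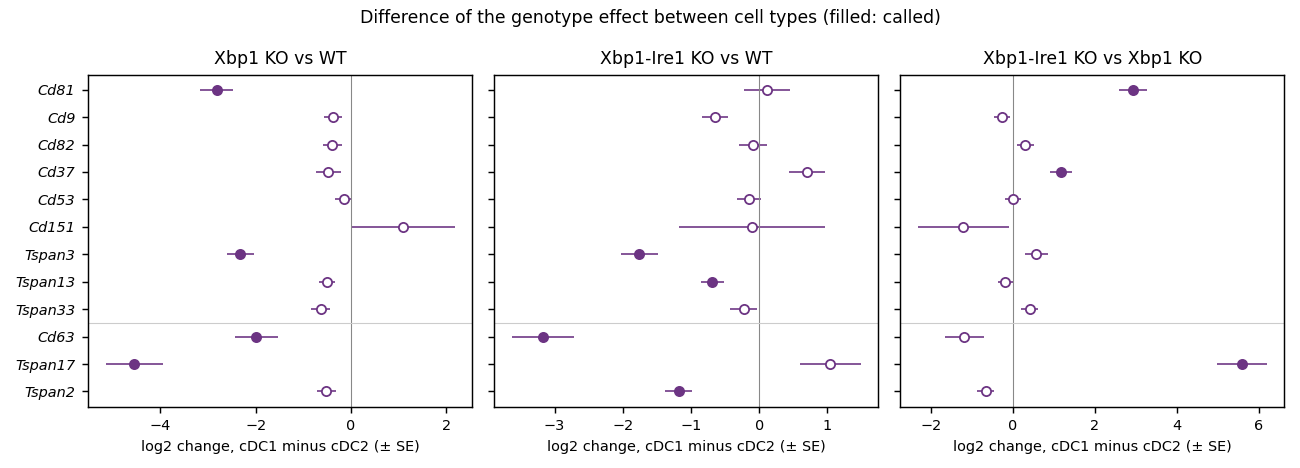
Points give the log2 effect of each genotype comparison in cDC1 minus that in cDC2, with SE bars, for the 9 listed tetraspanins and 3 further family members, filled where the adjusted p was under 0.05. Cd81 stands at −2.82 for Xbp1 KO against WT, near 0 at 0.11 for Xbp1-Ire1 KO against WT and at 2.93 between the knockouts.

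Between the WT subsets, 3 of 9 members were higher in cDC1, where 20% of 12185 genes were called higher in cDC1 and 40.8% in either direction. Cd81 was higher by 2.24 ± 0.23 on the log2 scale, 4.72-fold (adjusted p = 1.31e-07, edgeR), Cd9 by 1.33 ± 0.13, 2.52-fold (adjusted p = 4.14e-08, edgeR), and Tspan33 by 1.02 ± 0.14, 2.03-fold (adjusted p = 4.5e-06, edgeR). The groups of these 3 genes did not overlap, beside 20.5% of all genes that were higher in every cDC1 WT library. Cd53 lay the other way, just without overlap, at 649 to 843 CPM in cDC1 WT and 845 to 1020 CPM in cDC2 WT. The share of all genes lower in this way is not given here. Cd53 (−0.25 ± 0.12), Cd37 (−0.35 ± 0.18), Cd82 (0.09 ± 0.14), Tspan3 (0.14 ± 0.19), Tspan13 (−0.03 ± 0.12) and Cd151 (−0.61 ± 0.73) were not called on the log2 scale. Of these, Cd37 was called with a replicate block (−0.49, adjusted p = 0.0171, edgeR) and without cDC1 WT replicate 2 (−0.52, 0.0419) or cDC2 WT replicate 4 (−0.5, 0.016). Macrophage markers, which summed to 116 to 202 CPM in cDC1 WT and 428 to 591 CPM in cDC2 WT over 6 of 6 markers, differed between the same libraries, and their part in these differences was not tested.

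Of 22 further tetraspanin genes, 11 passed the filter in each subset. In cDC1, 2 of 11 fell in Xbp1 KO against WT, beside 6.91% of all genes. In Xbp1-Ire1 KO against WT 2 of 11 fell and 1 rose, beside 4.71% and 3.04%, and 1 of 11 was higher in Xbp1-Ire1 KO than in Xbp1 KO, beside 7.13%. In cDC2, 0 of 11 were called in each comparison. Tspan17, a TspanC8 gene like Tspan33, was nearly absent from cDC1 Xbp1 KO, with 3, 2 and 0 counts, against 67, 65 and 91 counts in WT and 163, 248 and 226 in Xbp1-Ire1 KO. Its level was 5.72, 5.08 and 7.37 CPM in WT, 0.255, 0.182 and 0 without Xbp1 and 14.7, 14.9 and 15.2 without both genes, so the 3 groups did not overlap. The fitted log2 difference was −5.3 ± 0.51 in Xbp1 KO against WT (adjusted p = 1.89e-05, edgeR), a size that rests on 5 counts in all in the knockout, and 6.61 ± 0.5 between the knockouts (adjusted p = 1.98e-06, edgeR).

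Tspan17 also rose above WT in Xbp1-Ire1 KO, by 1.3 ± 0.33 on the log2 scale (adjusted p = 0.0281, edgeR), a call lost in 6 of 14 alternatives. In cDC2 it lay at 3.58 to 5.79 CPM in WT, 2.01 to 3.77 without Xbp1 and 4.91 to 6.47 without both genes. The difference of its Xbp1 KO effect between the subsets was −4.55 ± 0.6 (adjusted p = 7.75e-05, edgeR). The 1 annotated Tspan17 transcript that was read held 0 copies of CTGCAG, and cleavage was not tested.

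Cd63, the tetraspanin of late endosomes and lysosomes, was, like Tspan3, low in both cDC1 knockouts. It lay at 107, 49.9 and 81.6 CPM in WT, 35.5, 15.6 and 24.9 without Xbp1 and 8.37, 6.68 and 19.3 without both genes. Every knockout library was below every WT library. Cd63 fell by 1.66 ± 0.38 on the log2 scale in Xbp1 KO (adjusted p = 0.0148, edgeR) with −2.79 ± 0.4 in Xbp1-Ire1 KO (adjusted p = 0.000776, edgeR). The Xbp1 KO call was lost in 3 of 14 alternatives: without WT replicate 1 (−1.38), without Xbp1 KO replicate 2 (−1.4) and against the WT-named library only (−1.68). In cDC2 it lay between 34.6 and 65.8 CPM in all genotypes, and the difference of effects between the subsets was −1.99 ± 0.45 for Xbp1 KO (adjusted p = 0.0192) and −3.17 ± 0.46 for Xbp1-Ire1 KO (adjusted p = 0.000382). The first of these lost its call in 6 of 21 alternatives, among them leaving out the library with acinar transcripts (−1.97, adjusted p = 0.0527) and using either kind of WT library alone (0.0775 and 0.0979).

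Tspan2, a tetraspanin also known from oligodendrocytes, lay at 16.8, 13.7 and 18.5 CPM in cDC1 WT. It lay at 11.6, 9.71 and 10 CPM without Xbp1 and 6.21, 7.82 and 5.91 CPM without both genes, and the 3 groups did not overlap. It fell by 1.29 ± 0.23 on the log2 scale in Xbp1-Ire1 KO against WT (adjusted p = 0.00423, edgeR). The difference was −0.65 ± 0.23 in Xbp1 KO against WT and −0.63 ± 0.23 between the knockouts, neither called (adjusted p = 0.0832 and 0.0911, edgeR). In WT cells the difference of cDC1 from cDC2 was −2.15 ± 0.14 on the log2 scale. With it, Tspan14 (−1.43 ± 0.14), Tspan5 (−2.93 ± 0.28) and Tspan9 (−0.92 ± 0.19) were also lower in cDC1 WT, and of 12 such genes tested across the subsets 5 were lower and 1, Cd63, higher, beside 20.7% and 20% of all genes. The Cd63 call (0.89 ± 0.3) was lost in 5 of 15 alternatives, among them fl-fl (adjusted p = 0.158) or WT-named (0.14) libraries alone.

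**Figure D5:**
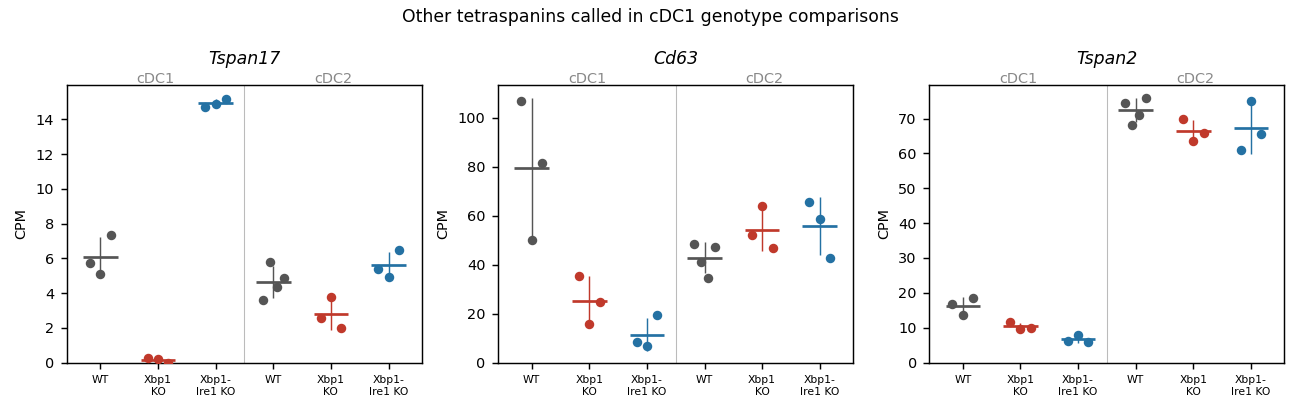
TMM-scaled CPM of Tspan17, Cd63 and Tspan2 in every library (points), with group means (horizontal lines) and SDs (vertical lines), for the 3 genotypes of cDC1 and cDC2. Tspan17 in cDC1 runs from 5.08 to 7.37 CPM in WT to at most 0.255 without Xbp1 and 14.7 to 15.2 without both genes, while Cd63 in cDC1 is lower in both knockouts.

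Genes of known tetraspanin partners changed in part. Of 6 MHC class II genes in cDC1, 3 fell and 0 rose in Xbp1 KO against WT, beside 6.91% of all genes called lower, and 3 fell and 0 rose in Xbp1-Ire1 KO against WT, beside 4.71%. H2-DMb1, a chain of the peptide editor H2-DM, lay at 633, 612 and 579 CPM in WT, 348, 329 and 317 without Xbp1 and 679, 680 and 698 without both genes, so the Xbp1 KO libraries were the lowest and no groups overlapped. It fell by 0.89 ± 0.11 on the log2 scale in Xbp1 KO against WT (adjusted p = 0.000118, edgeR) and was higher by 1.06 ± 0.11 between the knockouts (adjusted p = 2.04e-05, edgeR). The invariant chain gene Cd74 fell in Xbp1 KO (−0.53 ± 0.15) and in Xbp1-Ire1 KO (−0.73 ± 0.16) against WT on the log2 scale, and H2-Ab1 fell in Xbp1 KO (−0.6 ± 0.14). The chains H2-Aa (−0.67 ± 0.15) and H2-Eb1 (−0.59 ± 0.13) fell in Xbp1-Ire1 KO. These Cd74, H2-Ab1, H2-Aa and H2-Eb1 calls depended on the WT libraries. Against the single WT-named library none was called: Cd74 was at −0.04 and −0.24 (adjusted p = 0.9 and 0.231, edgeR), H2-Ab1 at −0.22 (0.431), H2-Aa at −0.27 (0.305) and H2-Eb1 at −0.28 (0.211). The H2-DMb1 calls were kept in all alternatives run.

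Of 4 immunoglobulin superfamily partners 1 passed the filter in cDC1 and was not called. Of 5 integrin genes in cDC1, 0 were called against WT in either knockout, and Itga4 was lower in Xbp1-Ire1 KO than in Xbp1 KO (−0.69 ± 0.18). That was 1 of 5, beside 12.7% of all genes called in either direction. Of the sheddase genes Adam10 and Adam17, which meet TspanC8 proteins and CD9, Adam17 fell in Xbp1-Ire1 KO against WT by 0.54 ± 0.13 on the log2 scale (adjusted p = 0.0223, edgeR). That was 1 of 2, beside 4.71% of all genes called lower. Adam17 was also lower in Xbp1-Ire1 KO than in Xbp1 KO (−0.56 ± 0.13, adjusted p = 0.0133, edgeR), beside 12.7% called in either direction. Rab27a, a GTPase of vesicle release, rose by 0.94 ± 0.15 in Xbp1 KO against WT (adjusted p = 0.00149, edgeR) and was lower in Xbp1-Ire1 KO than in Xbp1 KO (−0.57 ± 0.15). In each it was 1 of 4 vesicle release genes tested, beside 11.2% and 12.7% of all genes called in either direction. Among 6 receptor genes, Ifitm3, an interferon-induced membrane protein, rose in Xbp1-Ire1 KO against WT (1.34 ± 0.24) and Cd4 fell (−1.81 ± 0.46). That was 1 of 6 higher and 1 of 6 lower, beside 3.04% and 4.71% of all genes. Ifitm3 was also higher in Xbp1-Ire1 KO than in Xbp1 KO (1.3, adjusted p = 0.00319, edgeR), beside 7.13% of all genes. Against WT, the Ifitm3 call and the Xbp1 KO call of Rab27a were kept in 14 of 14 alternatives. The Cd4 call was lost in 5 of 14 and that of Adam17 in 3 of 14. Cd4 was low in cDC1, at 11.6, 12.4 and 9.15 CPM in WT and 1.8, 5.29 and 2.21 CPM in Xbp1-Ire1 KO. It lay at 242, 259, 307 and 234 CPM in cDC2 WT, and the part of any cDC2 cells in its fall was not tested. Between the knockouts, Rab27a lost its call in 5 of 12, Itga4 and Adam17 each in 4 of 12, and Ifitm3 kept its call in 12 of 12. In cDC2, 0 partner genes of any of these lists were called in any genotype comparison.

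Promoter windows of the family in RefSeq (GRCm38.p6) were searched on both strands for known ER stress motifs. The windows were short and lay at the annotated start, such as 45238790 to 45239089 on chromosome 7 for Cd37. Sequence outside them was not searched. The letters TGACGTGG of the unfolded protein response element stood in 0.676% of 32851 windows of all genes, the ER stress element in 0.119% and TGATGCAA of the ATF4 site in 0.895%, and none of them was found in a tetraspanin window. Tspan18 and Upk1b had no window and were not searched. The shorter ACGTG, which overlaps the first, stood in 19.6% of windows, and in those of Cd37, Cd82, Tspan3, Cd63 and Tspan4.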

How the data were processed

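The authors deposited raw counts by gene symbol, 1 table per cell type, and the 2 tables hold 19 libraries per the file headers. The submitters' processing notes list limma 3.42.2, mm10, TopHat2 2.1.0, Trimmomatic 0.35, SAMtools 0.1.19 and FastQC 0.11.4. Which program counted reads, with which annotation and strand setting, is not stated there. The log2 tables deposited by the authors were read but not tested. Per the labels, a library came from 5000 to 50000 sorted cells.

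Tests used edgeR 4.0.16 in R 4.3.3: filterByExpr (minimum count 10, minimum total 15), TMM, the quasi-likelihood F test with all genotypes of a subset in 1 fit, and Benjamini-Hochberg adjustment across every gene tested. WT subsets and interactions came from a joint fit of the 19 libraries. An SE was approximated from the log2 fold change and its F value. The procedure was tested on simulated data. Log2 CPM had a prior count of 2.

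Members and gene lists were chosen with earlier results of these data known. All 9 members are named. Other tetraspanins are named if called, at most 4 per comparison, and partner genes at most 3 per list, by smallest adjusted p, for the genotype comparisons. Genes most like Cd81 are the 5 with the highest Pearson correlation among those whose average log2 CPM reached 3, without predicted genes.

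Transcripts are from GENCODE M21 and promoter windows from RefSeq. The alternatives were a DESeq2 1.42.0 test, DESeq2 size factors within edgeR, no filter, a minimum count of 50, a replicate block, WT libraries of 1 name only (fl-fl or WT), only the compared groups, and omission of each library. Where that leaves 1 library, its spread is taken to equal that of the other groups. Figures were drawn with matplotlib 3.10.9.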

Additional observations from a re-analysis of the deposited data

Results flagged for a closer look

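By an interaction test over all 19 libraries in edgeR, the effect of genotype differed between cDC1 and cDC2 for 7 of 21 tetraspanins. These were called in 1 or more comparisons, and the share of all genes so called was not computed. In each single comparison 2 of 9 listed members were called. Of 12 other tetraspanins, 2, 2 and 1 were called in the order below, beside 2.17%, 2.23% and 2.14% of all genes. The values below are log2 effects in cDC1 minus those in cDC2. For Xbp1 KO against WT they were −2.82 for Cd81, −2.32 for Tspan3, −4.55 for Tspan17 and −1.99 for Cd63, the last losing its call in 6 of 21 alternatives. For Xbp1-Ire1 KO against WT they were −1.76 for Tspan3, −0.69 for Tspan13 (lost in 15 of 21), −3.17 for Cd63 and −1.18 for Tspan2. For Xbp1-Ire1 KO against Xbp1 KO they were 2.93 for Cd81, 1.18 for Cd37 and 5.59 for Tspan17. The comparisons share WT or knockout libraries.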

How the results depend on the processing

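The calls of Cd81 and Tspan3 in cDC1 were kept under every alternative run: Cd81 ranged from −2.87 to −2.13 on the log2 scale in Xbp1 KO against WT and from 2.55 to 2.79 between the knockouts, and Tspan3 from −2.32 to −1.9 and from −1.89 to −1.47 against WT. Of 16 member values called, 5 changed their call under some alternative, 9 of 74 uncalled values gained one, and 0 called values turned their direction. Of all genes, 1270 of 11353 were called for cDC1 Xbp1 KO against WT as reported. With DESeq2 1809 of 10790 genes were called, and with fl-fl WT libraries only 2926 of 11597. The count of members called for this comparison was 2, but 4 with DESeq2 and 7 with fl-fl WT libraries only. It was 2 to 7 when each library was left out, 7 being without WT replicate 3. For cDC1 Xbp1-Ire1 KO against WT it was 3, and 1 against the WT-named library. For cDC2 Xbp1-Ire1 KO against WT it was 0, and 1 with fl-fl WT libraries only, where 485 of 11915 genes were called in place of 3 of 11646. For the interaction of Xbp1-Ire1 KO against WT it was 2, and 1 with fl-fl WT libraries only, with WT-named libraries only or with only the groups compared, and 1 to 3 when each library was left out, 3 being without cDC1 Xbp1-Ire1 KO replicate 3, where Cd9 was added. DESeq2 also gave 3, and called 463 of 12533 genes there, against 272 of 12185 as reported. Leaving out each library gave 1 for cDC1 Xbp1-Ire1 KO against Xbp1 KO and 1 to 2 for its interaction. The cause was not tested.

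The replicate numbers were not taken as pairs. Same-numbered libraries correlated at −0.152 to 0.234 in cDC1 and at −0.119 to 0.228 in cDC2, with 3 of 9 pairs over 0.1 in each, and across the subsets at −0.0612 to 0.258, with 4 of 9 over 0.1 against 3 of 21 for other pairs. Some library names carry the same number in both subsets, but no source says that it marks a mouse. With the replicate block the count was 1 in place of 2 for cDC1 Xbp1-Ire1 KO against Xbp1 KO, Cd37 being lost, and 1 in place of 2 for the interaction of Xbp1-Ire1 KO against WT, Tspan13 being lost. It was 3 in place of 2 for cDC1 Xbp1 KO against WT, Cd9 being gained, and 4 in place of 3 between the WT subsets, Cd37 being gained. The other counts of members were the same.

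Counts of genes called ranged over the alternatives from 345 to 2926 (1270 as reported) for cDC1 Xbp1 KO against WT, 430 to 1966 (880) for Xbp1-Ire1 KO against WT and 648 to 2239 (1437) between the knockouts. In cDC2 they ranged from 6 to 740 (12), 3 to 485 (3) and 2 to 11 (4), the upper values of the first pair coming from fl-fl WT libraries only. Between the WT subsets they ranged from 3156 to 5236 (4971), and for the interactions from 173 to 431 (264), 170 to 463 (272) and 194 to 462 (261). With 3 libraries in most groups, small differences such as those of Cd9 and Cd37 lie at the limit of the test, and Cd151 is limited by its counts.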
